A study of Homo sapiens with 4 samples.

Results

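The BTB zinc finger genes encode transcription factors that pair an N-terminal BTB domain with C-terminal zinc fingers. In the table of estimated read counts they were taken by symbol, as every ZBTB gene with a number and, where present, the letter A or B, together with BCL6, PATZ1, HIC1 and HIC2. This gave 36 of 35820 genes, of which 30 passed the filter on low counts and were tested. The family was chosen by the low counts of ZBTB18 in TOP3B knockout cells, so the values of ZBTB18 are a description with no test. The other 35 genes were taken by name, with earlier results of these data known. Another 8 genes with such symbols in GENCODE 29, among them ZBTB2, ZBTB5 and ZBTB24, had no row among the estimated counts and could not be analysed.

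RNA was compared between wild-type (WT) HCT116 cells, a human colon carcinoma line, and clone E2-4 of the same line (KO), in which CRISPR and a guide RNA to exon 2 of TOP3B had been used. TOP3B is a topoisomerase of DNA and RNA, and the stated question was how it regulates R-loops and transcription. Each group had 2 libraries of ribosome-depleted total RNA from cells in medium with fetal bovine serum, and no treatment is named. The KO group is 1 clone, so clone and genotype cannot be told apart, and no label ties the libraries of a group to separate cultures, so p-values measure the spread between these libraries, which may be technical.

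The BTB domain lets these proteins form dimers and bind corepressors such as NCOR1 and BCOR, which bring histone deacetylases to a gene, and the zinc fingers choose the DNA sequence. Many members are repressors that fix cell identity in blood cells or neurons, several bind methylated DNA, and some act in growth control or at telomeres. BTB domains without these zinc fingers often serve another purpose, as adaptors that carry substrates to the ubiquitin ligase scaffold CUL3.

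The libraries held 10450048 to 16143634 counts in genes, and the family took 15318 to 24500 counts, or 0.126% to 0.154% of a library. A level is given in CPM, counts scaled by library size and a TMM factor, which corrects for differences in RNA composition. With 0 counts in a single library, a level below 0.176 to 0.271 CPM (3 counts, depending on the library) cannot be told from 0, by counting error only. ZBTB20 alone held 24.5% of the family's counts, and 5 genes held 62.0%. TOP3B itself was at 57.1 and 66.5 CPM in WT and at 43.9 and 54.7 CPM in KO, a log2 fold change of -0.32 (SE 0.17; adjusted p = 0.522 in edgeR), and its total RNA level does not test the edit. Epithelial markers were present and lower in KO, with summed levels of 2943 and 2464 CPM in WT against 1809.5 and 1719 CPM in KO, most of it KRT19 (2243 and 1744 CPM against 1206 and 1083 CPM; adjusted p = 0.293 in edgeR and 0.00290 in DESeq2). Of 7 tested, 4 had an unadjusted edgeR p under 0.05, all lower, where 6.21% of all genes were, while KRT8 and KRT18 overlapped between groups (-0.08 and 0.41) and VIL1 had 1 count in all. The part of these markers in the results was not tested. Of 11 leukocyte markers, 7 were at 0 in every library, including PTPRC and CD3E, and their summed level was at most 0.848 CPM, so RNA of blood cells was not seen beside the family members named for blood lineages. In bulk RNA, fewer cells with a transcript and less transcript per cell cannot be told apart.

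ZBTB18 was almost absent from the KO libraries. It encodes RP58, a repressor known from the differentiation of cortical neurons and muscle. Its level was 12.6 and 4.67 CPM in WT replicates 1 and 2, and 0 and 0.939 CPM in KO replicates 1 and 2, from 163, 57, 0 and 16 counts. The KO libraries were both lower than either WT library, while the WT libraries differed from each other by more than 2-fold. The log2 fold change from edgeR was -4.03 (SE 1.16). Without WT replicate 1, the library with the higher level, it was -3.17, and without KO replicate 1, which had no count, it was -3.18.

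The level of ZBTB18 was set beside that of its neighbours on chromosome 1. Of 11 neighbouring genes in the table, 8 were tested, with a median log2 fold change of -0.14, and 0 had an unadjusted edgeR p under 0.05. The log2 fold change was -0.42 for COX20, -0.28 for EFCAB2, -0.19 for HNRNPU, -0.15 for ADSS2, -0.12 for SDCCAG8, 0.03 for DESI2, 0.06 for CEP170 and 0.10 for SMYD3, and the smallest edgeR adjusted p was 0.522, for COX20. CEP170, which encodes a centrosomal protein, stood at 194.1 ± 1.70 CPM in WT and 202.5 ± 1.63 CPM in KO (SD, n = 2 each). No tested neighbour had a fold near that of ZBTB18.

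The sequence before the start of ZBTB18 is shown because it carries the letters ACATCTG, the core of the site that RP58 is known to bind, here in capitals. It runs from 250 to 51 bases before the first of 3 RefSeq starts, at chr1:244048403-244048602 on the plus strand of GRCh38.p14. The matching stretch before the first of 2 starts of ZBTB47, the tested member with 0 counts in both KO libraries, lies at chr3:42653447-42653646 on the plus strand and has no such match.
ZBTB18: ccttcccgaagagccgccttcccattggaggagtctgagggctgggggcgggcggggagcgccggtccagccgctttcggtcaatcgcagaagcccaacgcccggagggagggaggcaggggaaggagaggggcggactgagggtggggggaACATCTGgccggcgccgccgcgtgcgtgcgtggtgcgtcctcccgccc
ZBTB47: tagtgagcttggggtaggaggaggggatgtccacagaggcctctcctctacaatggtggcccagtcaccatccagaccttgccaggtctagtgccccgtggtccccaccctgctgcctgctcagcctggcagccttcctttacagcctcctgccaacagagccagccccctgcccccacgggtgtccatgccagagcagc
The ZBTB18 stretch held 21 CpG dinucleotides and that of ZBTB47 held 2, although the window at the second RefSeq start of ZBTB47 was rich in CpG, with 38 in 300 bases. Searched on both strands in the RefSeq windows of 300 bases at first-listed starts, ACATCTG was found for 2 of 29 family members that matched, ZBTB18 and HIC2, against 3.42% of 27305 windows of all genes and 1.82% of the 9442 genes tested here. The median number of CpG was 23 in the family, 14 over all genes and 26 over genes tested here. Gene counts do not tell which start was used, and a match is a description of the letters only.

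Among members taken by name, no gene passed in edgeR over all genes. The edgeR quasi-likelihood test with Benjamini-Hochberg adjustment called 0 of the 29 tested members other than ZBTB18, against 1 of all 12269 genes (0.00815%). At an unadjusted p under 0.05 it gave 3 of the 29 tested members other than ZBTB18, which were ZBTB47, ZBTB41 and ZBTB1. All 3 were lower in KO, where 11.2% of all tested genes reached this p in either direction and 6.21% in the lower and 4.97% in the higher one, so the share in the family was near that of all genes. DESeq2, the alternative tool, called 1 of the 30 members other than ZBTB18 for which it gave an adjusted p, against 1.45% of all genes in either direction, 0.946% lower in KO and 0.504% higher. That gene was ZBTB47.

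**Figure D1:**
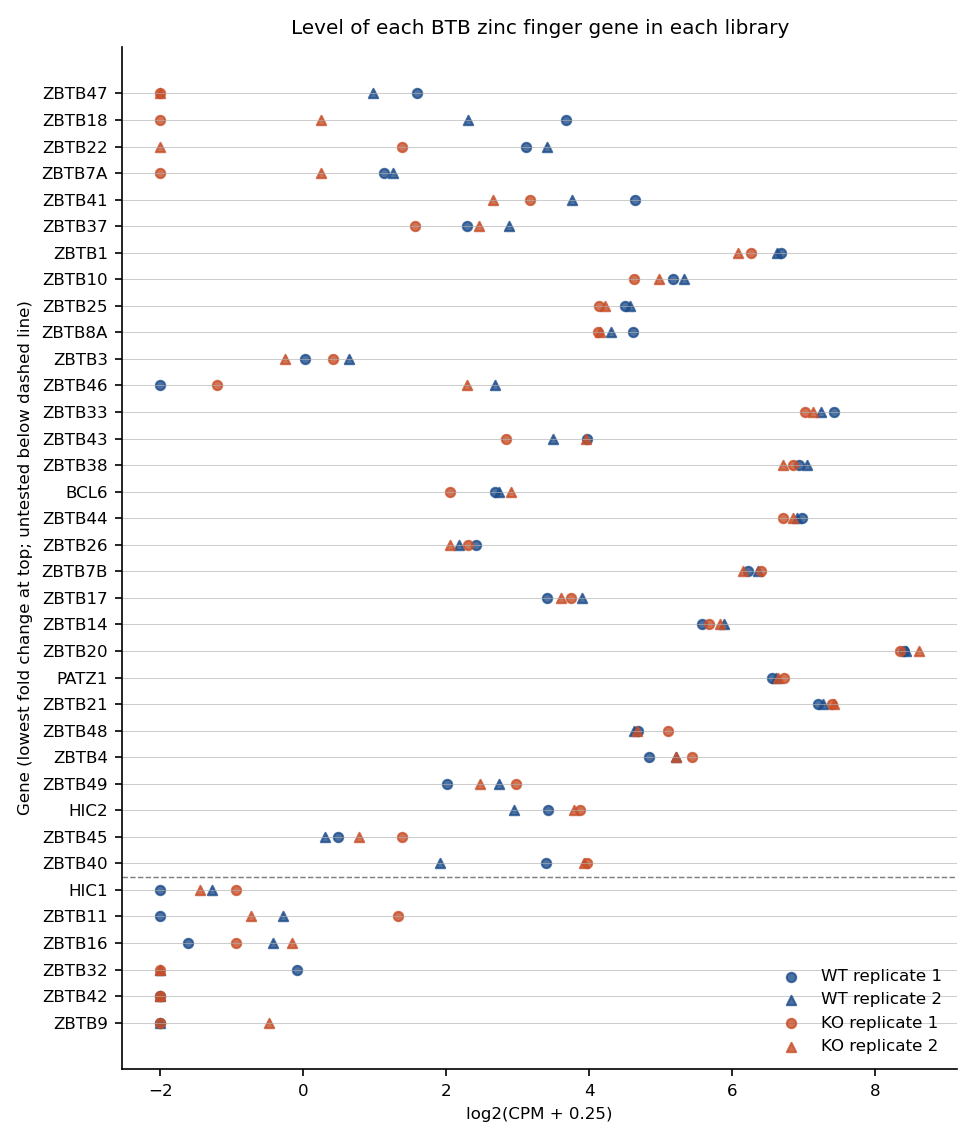
Level of each of the 36 BTB zinc finger genes in each of the 4 libraries, as log2(CPM + 0.25), with WT in blue, KO in orange, circles for replicate 1 and triangles for replicate 2. Genes are ordered by edgeR fold change, and the 6 below the dashed line did not pass the filter on low counts. The KO points of ZBTB47, ZBTB18, ZBTB22 and ZBTB7A lie left of both WT points, and the points of ZBTB46 split by replicate number.

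The less described members held several of the lowest folds. ZBTB47, a poorly studied zinc finger gene, had 36 and 21 counts in the WT libraries and 0 in both KO libraries. Its level was 2.77 and 1.72 CPM in WT, which made it at least 21.0-fold lower in KO against a floor of 3 counts over the KO group. The adjusted p was 0.253 in edgeR and 0.0131 in DESeq2. The DESeq2 call was lost without any 1 of the 4 libraries, with adjusted p from 0.0588 without WT replicate 2 to 0.929 without WT replicate 1, and edgeR called the gene without WT replicate 2 (adjusted p = 0.0462), with 0.355 to 0.556 without each of the others. The fit without WT replicate 2 takes the spread from the KO group and called 575 of all genes in edgeR and 721 in DESeq2. ZBTB47 passed the filter through the WT libraries alone.

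ZBTB41 stood at 24.7 and 13.3 CPM in WT and at 8.76 and 6.05 CPM in KO. The WT libraries were unequal, and both lay above the KO libraries. The fold was -1.37 on the log2 scale (SE 0.39; adjusted p = 0.370 in edgeR and 0.141 in DESeq2). Without WT replicate 2 it passed in both tools (-1.73; adjusted p = 0.0398 in edgeR and 0.0409 in DESeq2), in the fits that called 575 and 721 of all genes. Without WT replicate 1 the log2 fold change was -0.85 (adjusted p = 0.584 in edgeR), and without each other library the adjusted p was 0.646 and 0.708 in edgeR and at least 0.510 in DESeq2.

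ZBTB22, which lies in the extended MHC region, stood at 8.40 and 10.3 CPM in WT and at 2.35 and 0 CPM in KO. The KO libraries were apart from the WT libraries and from each other, with 26 counts in one and 0 in the other. The fold was -3.09 on the log2 scale (SE 1.36; adjusted p = 0.481 in edgeR and 0.893 in DESeq2). Without KO replicate 1, which leaves 1 KO library at 0 counts and takes the spread from the WT group, the adjusted p was 0.403 in edgeR and 0.00385 in DESeq2. In the other 3 fits with a library left out, the lowest adjusted p was 0.322 in edgeR and 0.813 in DESeq2.

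The other less described members showed smaller differences. ZBTB8A, ZBTB44 and ZBTB21 had groups that did not overlap by CPM, with log2 fold changes of -0.34, -0.16 and 0.18. In the deposited RPKM, scaled by gene length and library total without a TMM factor, the groups of ZBTB44 overlapped. ZBTB21, a repressor that binds ZBTB14, was at 146.4 and 154.4 CPM in WT and at 168.4 and 171.4 CPM in KO. ZBTB3, ZBTB26, ZBTB37, ZBTB43 and ZBTB49 overlapped between groups, and their edgeR adjusted p ran from 0.644 to 0.891. The 11 tested members of this group had a median of -0.34.

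Members of blood and lymphoid lineages included a pair of overlapping genes that stood lower together. ZBTB1, which is needed for lymphocyte development and DNA damage tolerance, was at 102.1 and 98.1 CPM in WT and at 76.7 and 67.5 CPM in KO (log2 fold change -0.47, SE 0.13; adjusted p = 0.349 in edgeR and 0.289 in DESeq2). ZBTB25, a regulator of T cell activation, was at 22.4 and 23.5 CPM in WT and at 17.3 and 18.4 CPM in KO (-0.36, SE 0.17; adjusted p = 0.490 in edgeR). In both genes the KO libraries lay below the WT libraries by CPM, while on RPKM the groups of ZBTB25 overlapped. These genes lie on opposite strands of chromosome 14 and overlap in GENCODE 29, and of the other genes that overlap ZBTB25, MTHFD1 had a log2 fold change of -0.49 and AKAP5 one of 0.0029. The library kit keeps strand, but whether counting used it is not given in the sources used here, so the share of reads that belongs to each gene is uncertain.

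The other lymphoid factors differed little or had too few counts. BCL6, the repressor of germinal centre B cells, was at 6.16 and 6.39 CPM in WT and at 3.89 and 7.22 CPM in KO. ZBTB7B, known as ThPOK and needed for CD4 T cells, was at 78.3 ± 5.61 CPM in WT and 77.6 ± 9.90 CPM in KO (SD, n = 2 each). PATZ1, a regulator of CD8 expression in thymocytes, was at 93.5 and 97.5 CPM in WT and at 105.9 and 99.3 CPM in KO, a log2 fold change of 0.10 (SE 0.11; adjusted p = 0.729 in edgeR) with groups that did not overlap. ZBTB46, a marker of classical dendritic cells, had 0 and 75 counts in WT and 2 and 79 counts in KO. Its level followed the replicate number and not the genotype, and its log2 fold change of -0.30 had an SE of 1.88. ZBTB16, which encodes PLZF, had 1 to 11 counts in each library, and ZBTB32 had 9 counts in WT replicate 1 and 0 in the others; neither was tested.

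The 3 members listed for binding methylated DNA were all tested. ZBTB33, or Kaiso, was at 171.8 and 151.0 CPM in WT and at 129.1 and 140.1 CPM in KO (log2 fold change -0.26, SE 0.13; adjusted p = 0.501 in edgeR). ZBTB38 was at 122.4 and 131.8 CPM in WT and at 114.8 and 104.5 CPM in KO (-0.21, SE 0.12; adjusted p = 0.535 in edgeR). In both genes the KO libraries lay below the WT libraries. ZBTB4 was at 28.4 and 36.9 CPM in WT and at 43.1 and 36.8 CPM in KO, so its groups overlapped (0.29, SE 0.20; adjusted p = 0.587 in edgeR).

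Growth control members went in different directions. HIC2, a repressor related to the tumour suppressor HIC1, was at 10.5 and 7.45 CPM in WT and at 14.4 and 13.6 CPM in KO (log2 fold change 0.64, SE 0.26; adjusted p = 0.460 in edgeR). HIC1 itself had at most 3 counts in a library and was not tested. ZBTB7A, a repressor with roles in fetal globin silencing and metabolism, had 25 and 26 counts in WT and 0 and 16 counts in KO, or 1.93 and 2.13 CPM against 0 and 0.939 CPM (-1.97, SE 1.14; adjusted p = 0.543 in edgeR). Its KO libraries lay below the WT libraries but were unequal. ZBTB17, or MIZ1, a partner of MYC at repressed genes, was at 12.5 ± 3.01 CPM in WT and 12.6 ± 0.900 CPM in KO (SD, n = 2 each).

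Telomere-binding members also differed in direction. ZBTB40 had the largest log2 fold change above 0 among tested members, with 10.2 and 3.52 CPM in WT and 15.4 and 14.9 CPM in KO (1.13, SE 0.51; adjusted p = 0.488 in edgeR and 0.516 in DESeq2). The WT libraries were nearly 3-fold apart, and without WT replicate 2 the log2 fold change was 0.57, against 2.10 without WT replicate 1. ZBTB48, or TZAP, a factor that trims telomeres, was at 25.4 and 24.3 CPM in WT and at 34.2 and 25.2 CPM in KO (0.25, SE 0.20). ZBTB10 was at 35.9 and 40.0 CPM in WT and at 24.5 and 31.1 CPM in KO, with groups that did not overlap (-0.45, SE 0.18; adjusted p = 0.464 in edgeR). On RPKM its groups overlapped.

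Of the members with roles in neural and other development, ZBTB18 was chosen for its fall, so its contrast with the others tests nothing. ZBTB20, a repressor of the hippocampus and liver, was at 336.7 and 344.3 CPM in WT and at 326.8 and 391.4 CPM in KO (log2 fold change 0.08, SE 0.13). ZBTB14 was at 53.2 ± 8.07 CPM in WT and 53.5 ± 4.08 CPM in KO (SD, n = 2 each). ZBTB45, a regulator of glial differentiation, had 12 to 26 counts in each library and stood higher in both KO libraries (0.82, SE 0.48; adjusted p = 0.550 in edgeR). ZBTB11 had 0 and 7 counts in WT and 25 and 6 counts in KO and did not pass the filter, nor did ZBTB9 with 8 counts in 1 library or ZBTB42 with 0 in all 4.

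**Figure D2:**
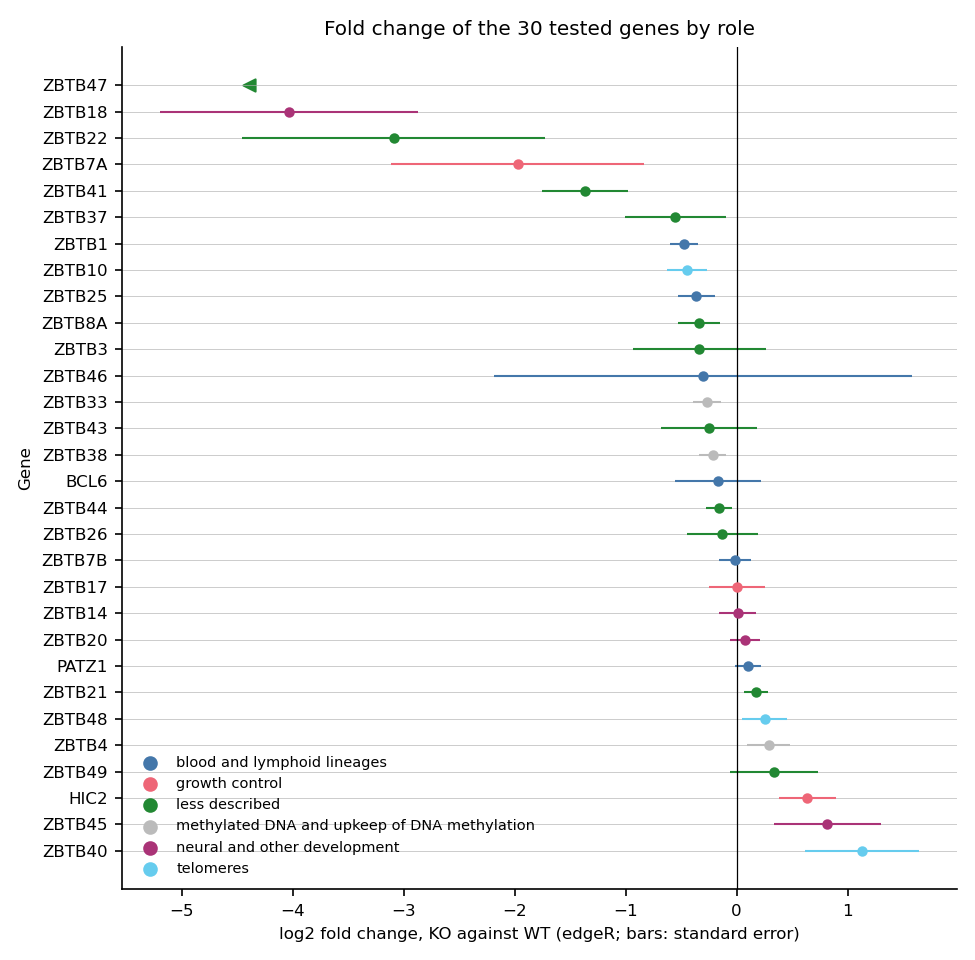
Log2 fold change of KO against WT for the 30 tested genes, by edgeR, with the standard error as bars and the role of each gene as colour. ZBTB47 is drawn as an arrowhead at the bound of at least 21.0-fold lower, and the widest bar belongs to ZBTB46, with an SE of 1.88.

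Across the 30 tested members the median log2 fold change was -0.19, also with ZBTB47 at its bound, beside -0.01 over all genes tested. The KO libraries were both lower than either WT library in 12 members and above in 5, or 40% and 16.7%, where all tested genes gave 23.5% each way. With library totals as the only scaling the counts were 7 and 7, or 23.3% each way, against 13.4% below and 32.4% above over all genes, since this scaling moved the median of all genes from -0.01 to 0.14. Relative to that median, the family stood at -0.18 under both scalings, at -0.051 without WT replicate 2 and at -0.062 without KO replicate 1. The SD between replicates of the members' median log2 level was 0.205. This is the spread of a level and not of a median fold change, so it does not measure the shift, which was not tested. ZBTB18 was chosen for its fall, and without it the median with TMM scaling was -0.17 over 29 members. Of these, 11 had both KO libraries lower and 5 had both higher (37.9% and 17.2%). ZBTB47 and others passed the filter through the WT libraries, so these counts describe the tested members and support no statement on the family. Of 517 genes named ZNF with a number, the wider zinc finger class, 343 were tested, with a median of 0.03.

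Folds were wider apart among members with low levels. The median size of the log2 fold change, sign left out, was 0.55 in the 17 tested members with a mean under 20 CPM and 0.21 in the 13 at 20 CPM or more, where all genes gave 0.38 and 0.19. With the sign, the medians were -0.30 and -0.01, where all genes gave 0.01 and -0.03 in the same classes. The KO libraries were both lower than either WT library in 35.3% of the 17, ZBTB18 among them, and 46.2% of the 13. All genes gave 22.5% and 24.6% in the same classes. Both KO libraries were higher in 17.6% and 15.4% of members, where all genes gave 23.5% in each class. No test of these classes was made. In 3 of the 30 members, ZBTB18, ZBTB40 and ZBTB46, the WT libraries were over 2-fold apart on the log2(CPM + 0.25) scale, and in 5 members, ZBTB7A, ZBTB18, ZBTB22, ZBTB43 and ZBTB46, the KO libraries were. This came to 10% and 16.7% of members, against 9.73% and 7.89% of all genes. The part of this spread in the folds of low-count members was not tested.

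Levels of different genes can be compared only per length, in the deposited RPKM, which carry no TMM factor. The gene lengths implied by RPKM had a median of 0.671 of the genomic span over 32 members, introns included, so genes with long introns are placed low. On this scale ZBTB33 was the highest member in each library, with 19.3 and 20.6 RPKM in WT, followed in WT replicate 1 by ZBTB14 at 7.67, PATZ1 at 7.05 and ZBTB21 at 6.41 RPKM. ZBTB20, first by counts, was at 0.660 to 0.944 RPKM with an implied length of 437470 bases. ZBTB18 was at 1.72 and 0.771 RPKM in WT and at 0 and 0.152 RPKM in KO.

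Corepressors and chromatin partners of the family showed no common direction. Of 35 listed genes 34 were tested, with a median log2 fold change of -0.01, and both edgeR and DESeq2 called 0 over all genes, with 3 at an unadjusted edgeR p under 0.05, where 11.2% of all genes were. BCOR, the corepressor bound by BCL6, was at 52.6 and 54.5 CPM in WT and at 37.1 and 41.3 CPM in KO (-0.45, SE 0.14; adjusted p = 0.388 in edgeR). PCGF1, a Polycomb protein of the BCOR complex, was at 24.1 and 30.1 CPM in WT and at 37.8 and 39.9 CPM in KO (0.52, SE 0.18; adjusted p = 0.412 in edgeR). DNMT3A, a DNA methyltransferase, was at 3.78 and 9.83 CPM in WT and at 13.2 and 36.1 CPM in KO (1.87, SE 0.66; adjusted p = 0.422 in edgeR), with groups that did not overlap and libraries of each group over 2-fold apart.

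BTB proteins of other classes, listed together with CUL3, RBX1, NEDD8 and FBXL17, gave a median of -0.0022 over 36 tested genes of 39 in the table. edgeR called 0 of them over all genes and DESeq2 called 1, while 4 had an unadjusted edgeR p under 0.05, against 11.2% of all genes at that p and 1.45% called by DESeq2, so the shares were near those of all genes. The gene called was BACH1, a BTB protein with a basic leucine zipper that represses heme oxygenase, which was at 45.0 and 52.6 CPM in WT and at 26.2 and 24.6 CPM in KO (log2 fold change -0.94, SE 0.16; adjusted p = 0.253 in edgeR and 0.0135 in DESeq2). The others were BTBD2 at -0.75, the adaptor KLHL13 at -0.45 and the adaptor SPOP at 0.60, with edgeR adjusted p of 0.349, 0.393 and 0.447. CUL3 itself was at 450.9 ± 62.7 CPM in WT and 407.4 ± 16.9 CPM in KO (SD, n = 2 each). Of 6 tested BTB zinc finger genes whose names fall outside the symbol rule, 0 had an unadjusted edgeR p under 0.05; the smallest was that of GZF1 (-0.76, SE 0.48; adjusted p = 0.561 in edgeR).

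Genes described as targets of ZBTB18, BCL6, HIC1, ZBTB17, ZBTB7A or ZBTB33 were read from the same fit. Of 31 present, 18 were tested, with a median log2 fold change of -0.06, and 11 lay below 0. edgeR called 0 over all genes, while 3 had an unadjusted edgeR p under 0.05, where 11.2% of all genes did. DESeq2, which called 1.45% of all genes, called 1 of these, S100A4, a calcium-binding protein gene repressed by Kaiso (-0.85, SE 0.14; adjusted p = 0.253 in edgeR and 0.0210 in DESeq2). Among ZBTB18 targets, ID2, an inhibitor of basic helix-loop-helix factors, was at 11.7 and 9.83 CPM in WT and at 5.69 and 3.05 CPM in KO (-1.31, SE 0.38; adjusted p = 0.380 in edgeR), while ID1 had -0.16 and ID3 had 0.14. PRDM1, the plasma cell regulator repressed by BCL6, had 3 and 0 counts in WT and 11 and 23 counts in KO. It passed the filter through the KO libraries alone, so its place among the 3 genes supports nothing. For the HIC1 targets EFNA1 and SIRT1 the log2 fold changes were -0.38 and -0.18, for the ZBTB17 targets ITGB1 and CDKN1A they were 1.20 and -0.11, and for BCL2L11, a ZBTB7A target, 1.39, all with an unadjusted edgeR p above 0.05.

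**Figure D3:**
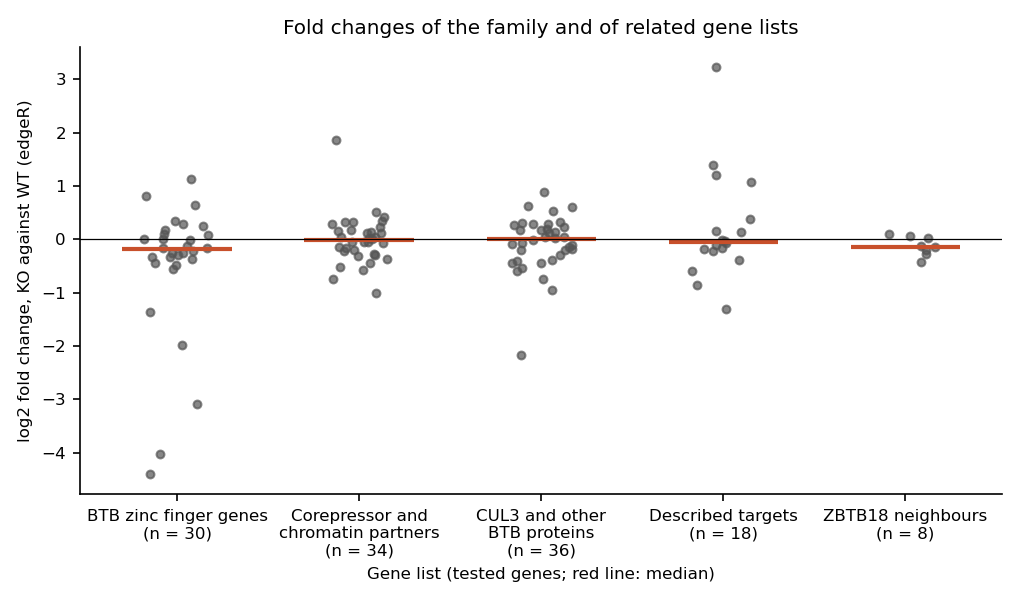
Log2 fold change of KO against WT by edgeR for each tested gene of 5 lists, with the list's median as a red line. ZBTB47 is placed at its bound, and the BTB zinc finger genes include ZBTB18, chosen for its fall. The medians are -0.19 for the BTB zinc finger genes, -0.01 for corepressor partners, -0.0022 for CUL3 and other BTB proteins, -0.06 for described targets and -0.14 for the neighbours of ZBTB18. The list of CUL3 and other BTB proteins also holds RBX1, NEDD8 and FBXL17.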

How the data were processed

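Per the submitters' processing notes, reads were quantified with Salmon 1.10.1 and the build was hg19; not given in the sources used here are annotation, gene summary and strand setting. The authors deposited estimated counts per gene, as whole numbers, and RPKM of the same libraries, which are those counts per gene length and library total, judged from the values. The counts were used as rounded estimated counts. How reads shared by genes were divided can move a low estimate to 0 in a single library, which was not tested.

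The main test was edgeR 4.0.16 in R 4.3.3 (quasi-likelihood F-test, TMM, filterByExpr, genotype only, Benjamini-Hochberg over 12269 genes, threshold 0.05). The check on simulated data gave all genes the same spread and changed only genes with more counts, so it does not cover members with few counts. The SE is the log2 fold change divided by the square root of F. Alternatives were DESeq2 1.42.0, limma 3.58.1 (voom, and log2 of RPKM plus 0.1), other scalings, no filter, a replicate block and each library left out. Members and gene lists were chosen with earlier results of these data known. Genes named in the text were ZBTB18, members with an unadjusted p under 0.05, the 5 largest folds each way, members with a listed role, and the smallest p of each other list; CUL3, ID1, ID3, SIRT1, CDKN1A, MTHFD1, AKAP5 and some less described members were added after their values were seen. GENCODE 29 and RefSeq (both GRCh38) gave gene positions, overlaps and sequences.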

Additional observations from a re-analysis of the deposited data

How the results depend on the processing

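The number of all genes called was 1 in edgeR, limma-voom, with RLE factors and with the replicate block, 187 in DESeq2, 42 with library totals only, 34 with no filter on low counts and 6 on log2(RPKM + 0.1); with 1 library left out it ran from 0 to 575. The number of members called, ZBTB18 left out because it was chosen for its fall, was 0 in edgeR and 1 in DESeq2. These tools called 0.00815% and 1.45% of all genes. DESeq2 alone, with 1 library left out (added after seeing the data), called 85 genes without WT replicate 1, 75 without KO replicate 1 and 72 to 721 over the 4 fits, with 0 to 1 members. Members at an unadjusted p under 0.05 numbered 4, against 7 with limma-voom, 7 with no filter, 8 on RPKM, 7 with the replicate block, and 5 to 7 with 1 library left out. The 4 include ZBTB18, which was chosen for its fall. The share of all genes at this p was taken only in the main test, at 11.2%. The counts of members in the other settings thus have no background and support no statement on the family. The members whose KO libraries lay below both WT libraries numbered 12 (40%), against 7 (23.3%) with library totals only and 7 (23.3%) on RPKM. Over all genes tested the share also fell, from 23.5% to 13.4% with library totals only and 13.4% on RPKM. ZBTB10, ZBTB25, ZBTB33, ZBTB38 and ZBTB44 lay below by CPM and overlapped on RPKM. The median log2 fold change of members stayed below 0 in each setting, from -0.19 to -0.03. Of 23 members that the naming rule took, 17 kept their direction in each setting that tested them. ZBTB7B, at -0.01, was at 0.14 with library totals only and 0.14 on RPKM, and from -0.15 to 0.11 with 1 library left out. ZBTB46 was at 1.44 with limma-voom and 0.074 with the replicate block. With 1 library left out, ranges that crossed 0 were -0.69 to 0.20 for BCL6, -0.14 to 0.19 for ZBTB14, -0.22 to 0.28 for ZBTB17, -0.059 to 0.20 for ZBTB20 and -4.01 to 8.09 for ZBTB46. Same-numbered libraries shared a number and had neighbouring indices in the column names, whose meaning the labels do not give. The correlation of their deviations from group means was 0.058, a single value, since 2 libraries per group make both pairs equal. The block changed no call at an adjusted p under 0.05. Depth limits ZBTB3, ZBTB7A, ZBTB45 and ZBTB47 most, with at most 36 counts in any library.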
